A study of Mus musculus with 6 samples.

Results

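The genes described here encode the chaperones, folding enzymes and degradation machinery of the endoplasmic reticulum (ER) and the sensors that control them. They are 33 genes named by function, in the order chaperones, lectins, disulfide enzymes, degradation factors, translocon subunits and sensors, and all 33 are listed among the 24421 gene symbols of the count table. The table compares Pml knockout with WT neural stem cells of E13.5 mouse embryos. All were cultured as neurospheres in 20% oxygen with the mitogens EGF and FGF2, each at 20 ng/ml, and lysed on day 4 after dissociation. Each genotype has 3 libraries. The knockout cells are labelled as lacking Pml, whose protein organises nuclear bodies, and the WT cells carry no stated allele. Which part of Pml was removed, and whether libraries came from separate embryos or from pooled ones, is not given in the sources used here, so p-values measure the spread between these 6 libraries, which may be technical.

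Secreted and membrane proteins enter the ER through the translocon, are folded there by chaperones, lectins and disulfide isomerases, and are sent back to the cytosol for degradation when they fail to fold. When unfolded proteins build up, sensors in the ER membrane respond. Ern1 (IRE1) splices the messenger of Xbp1, Atf6 is cut to release a transcription factor, and Eif2ak3 (PERK) slows translation. Dividing neural progenitors secrete matrix and signalling proteins and depend on this system. Reads were counted per gene near the transcript end, so the splicing of Xbp1, the cleavage of Atf6 and the activity of PERK were not measured.

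The libraries were unequal. Total counts were 4980638 to 5917505 in the knockout libraries and 1775152 to 4413318 in the WT libraries, with WT replicate 2 the shallowest. Reads of Rn45s, the pre-ribosomal transcript, made up 14.6% to 17.6% of counts in the knockout libraries, and 41.9%, 39.8% and 19.6% in WT replicates 1, 2 and 3. Levels are given as CPM, that is counts per 1e6 reads, scaled with library factors from the trimmed mean of M values, and because each transcript gives reads near its end only, they do not scale with transcript length. The 35 hepatocyte markers all had reads and all had a lower mean in the knockout, with 21 of the 35 lower without overlap between genotypes, against 11.3% of all genes tested. Their summed level was 167, 116 and 136 CPM in knockout replicates 1 to 3, and 798, 1321 and 247 CPM in WT replicates 1 to 3. Fgb, a fibrinogen chain, averaged 16.4 ± 4.78 CPM in the knockout and 78.6 ± 44.7 CPM in WT. Itih3, a plasma inhibitor chain also made by astrocytes, averaged 8.91 ± 1.25 CPM in the knockout and 78.5 ± 55.2 CPM in WT (SD, n = 3 each). Neural stem cell markers, which check the labelled cell type, summed to 7931 to 9584 CPM in the knockout and 6527 to 8879 CPM in WT, and all 16 had reads. Vim and Slc1a3 were the most abundant of them and weigh most in the sum. Of the 16, 6 had a lower mean in the knockout. Without overlap, 3 were higher (Hes1, Nr2e1 and Pax6) and 0 lower, against 12.3% and 11.3% of all genes tested, so the markers were not all even between genotypes. The 11 erythroid markers in the table summed to at most 0.602 CPM in a knockout library and 1.60 CPM in a WT library, with the globin rows at 0. Pml had 14, 23 and 5 reads in knockout replicates 1 to 3 and 36, 35 and 44 in WT replicates 1 to 3, with an edgeR adjusted p of 0.197 and a log2 fold change of -2.81.

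None of the ER genes passed between genotypes. By edgeR's quasi-likelihood test, adjusted over 11317 genes at a threshold of 0.05, 0 of the 30 ER genes with enough reads for the test passed, where 0.00884% of all genes tested did. Unadjusted p was under 0.05 for 4 of the 30, against 15.9% of all genes tested. Those were Calr and Pdia4, lower in the knockout, and Dnajb9 and Syvn1, higher. The CPM of the genotypes did not overlap for 5 of the 30, against 23.6% of all genes tested. Dnajb9, Txndc5 and Syvn1 were the higher ones in the knockout, and Creld2 and Pdia4 the lower ones. Neither share stood above the share over all genes. The log2 fold change was positive for 19 and negative for 11, where 50.3% of all genes tested were negative, with a median of 0.19, beside a median of -0.01 over all genes tested. DESeq2 called 1 of the 30, Calr, against 2.9% of all genes. The edgeR exact test called 0 of the 30, against 3.17% of all genes, and with WT replicate 3 as the only WT library 0 of the 30 were called, against 1.17% of all genes. The remaining 3 genes, Ero1lb, Derl3 and Ern1, had too few reads to be tested with all 6 libraries.

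**Figure D1:**
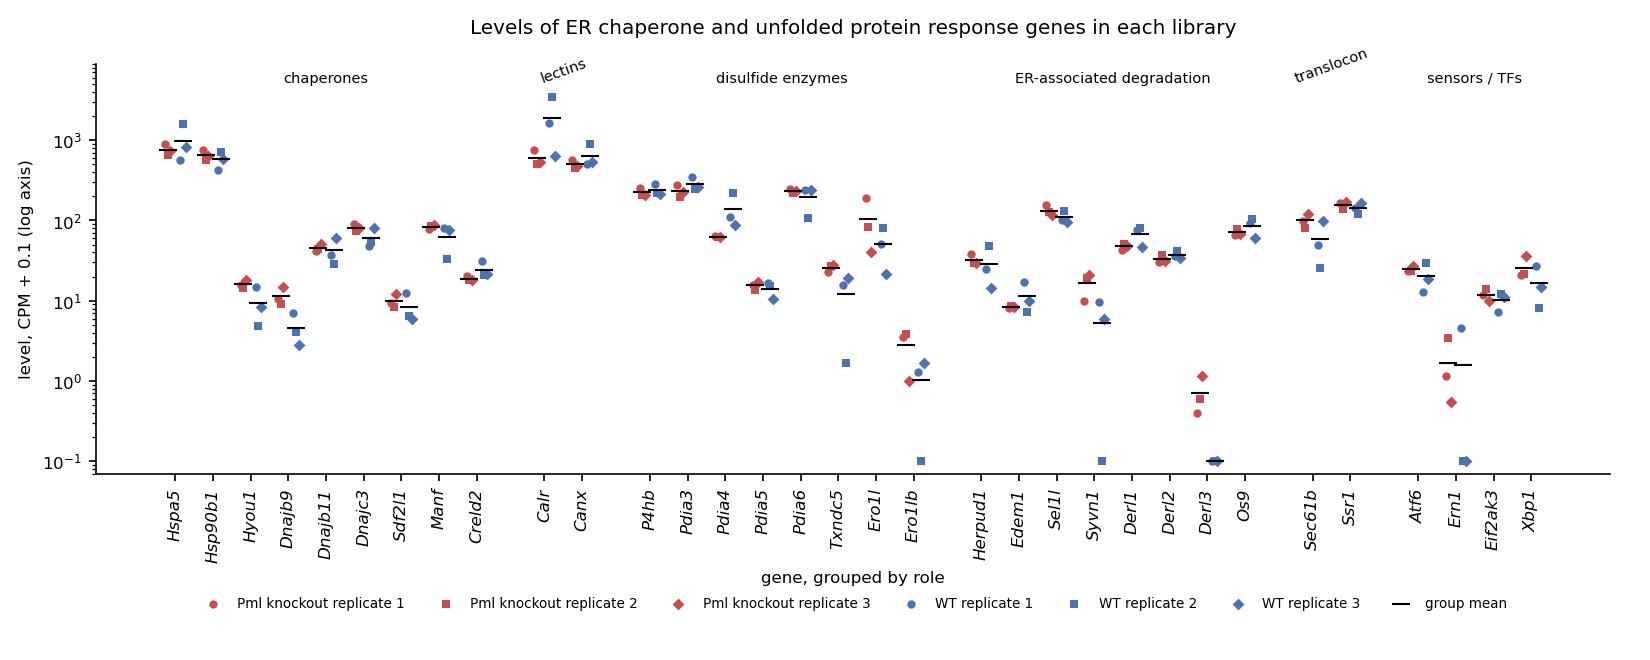
Level of each of the 33 ER genes in each library, as CPM plus 0.1 on a log axis, with genes grouped by role along the horizontal axis; red symbols are Pml knockout libraries, blue symbols WT libraries, symbol shapes mark replicates and black lines the group means. The knockout symbols lie closer together than the WT symbols for most genes, and Calr in WT replicate 2 is the topmost point at 3484 CPM.

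The spread among WT libraries was wider than among knockout libraries. The median coefficient of variation of the 30 tested ER genes was 11.4% over the knockout libraries and 40.4% over the WT libraries. Over all genes tested it was 17.2% in the knockout and 40.0% in WT. WT replicate 2 held the highest of the 6 levels for 9 of the 30 ER genes and the lowest for 10. Over all genes tested it held the highest for 30.8% and the lowest for 35.1%. Its low levels included Txndc5, Syvn1, Pdia6, Sec61b, Xbp1, Manf and Hyou1, and its high levels included Calr, Hspa5, Pdia4 and Canx, so the ER genes did not shift together in that library.

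**Figure D2:**
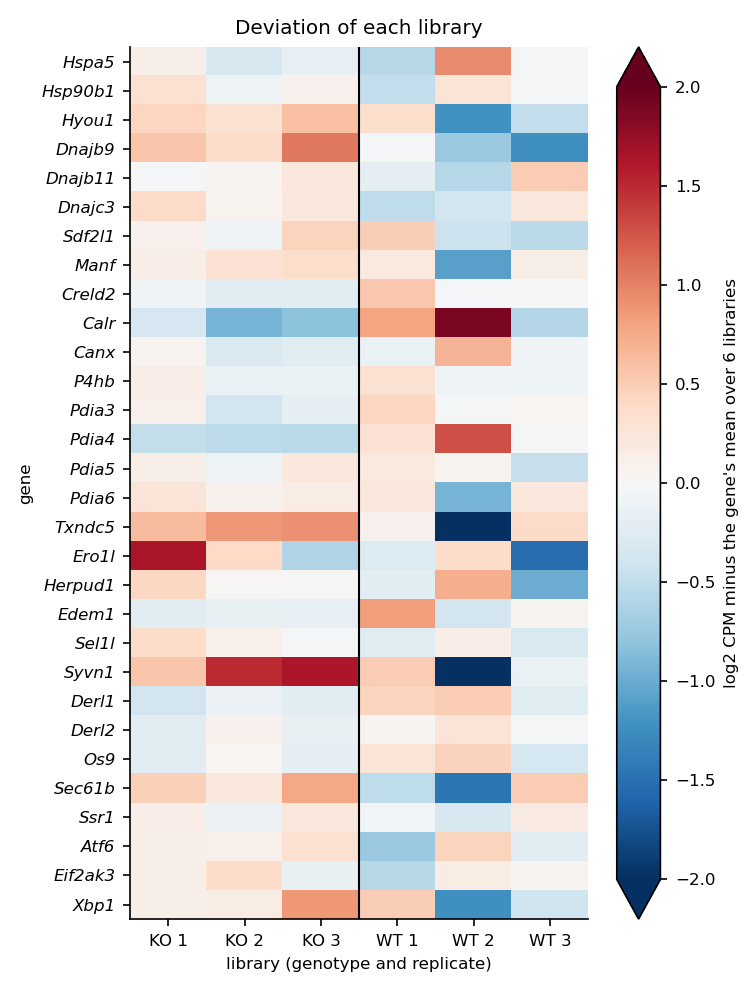
Deviation of each library from a gene's mean over the 6 libraries, on the log2 CPM scale with a prior count of 2, for the 30 tested ER genes (rows) in knockout and WT libraries (columns), red above and blue below the mean. The strongest colours of both kinds stand in the WT 2 column, where Calr is at 1.88 and Syvn1 at -4.04, beyond the end of the colour scale.

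Several of these genes share a promoter element, which was not used to choose them here, although the element was first described in promoters of ER chaperone genes. The ER stress response element, ERSE, is known to bind NF-Y at its CCAAT end and ATF6 or XBP1 at its CCACG end, and was searched on both strands as CCAAT and CCACG with any 9 bases between them, from 250 bases before to 50 bases after each RefSeq transcript start (GRCm38.p6). It was found for 10 of 29 ER genes with a window, or 34.5%, beside 37 of 27025 genes in the whole promoter table, or 0.137%. ERSE-II, searched as ATTGG and CCACG with any 1 base between them, was found for 2 of the 29 (6.90%), Herpud1 and Dnajb11, beside 0.0444% of all genes. The core of the XBP1 element, searched as TGACGTGG, was found for 1, Txndc5 (3.45%), beside 0.714% of all genes. The motifs searched do not overlap each other in these windows. Hyou1, Manf, Derl1 and Atf6 have no entry in the table. The stretches around the ERSE and ERSE-II matches upstream of the RefSeq start are shown because they set these genes apart by sequence. The Hspa5 stretch lies inside the gene span given below, which is from another annotation with an earlier start. Capitals mark the fixed bases of the motif, and a stretch that opens its motif with CGTGG carries it on the opposite strand.
Hspa5 (chr2:34772005-34772063, plus strand): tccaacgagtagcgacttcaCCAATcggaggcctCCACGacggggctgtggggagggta
Hsp90b1 (chr10:86705513-86705676, minus strand): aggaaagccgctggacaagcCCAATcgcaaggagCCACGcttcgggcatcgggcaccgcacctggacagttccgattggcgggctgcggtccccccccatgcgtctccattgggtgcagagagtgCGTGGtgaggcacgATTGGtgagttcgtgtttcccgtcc
Dnajc3 (chr14:118937807-118937865, plus strand): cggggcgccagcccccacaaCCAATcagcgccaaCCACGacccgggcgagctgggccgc
Creld2 (chr15:88819500-88819558, plus strand): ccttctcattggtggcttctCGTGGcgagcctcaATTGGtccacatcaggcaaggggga
Calr (chr8:84847055-84847113, minus strand): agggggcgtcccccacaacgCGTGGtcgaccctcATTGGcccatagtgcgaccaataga
Canx (chr11:50325780-50325838, minus strand): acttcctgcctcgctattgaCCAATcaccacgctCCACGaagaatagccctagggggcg
Pdia6 (chr12:17266471-17266529, plus strand): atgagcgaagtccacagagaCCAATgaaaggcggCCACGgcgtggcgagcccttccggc
Ero1lb (chr13:12565662-12565720, plus strand): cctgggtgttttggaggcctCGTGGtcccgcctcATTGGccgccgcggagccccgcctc
Herpud1 (chr8:94386357-94386407, plus strand): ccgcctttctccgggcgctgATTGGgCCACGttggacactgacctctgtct
Syvn1 (chr19:6046512-6046570, plus strand): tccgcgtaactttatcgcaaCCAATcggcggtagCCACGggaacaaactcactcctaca
Derl3 (chr10:75893222-75893280, plus strand): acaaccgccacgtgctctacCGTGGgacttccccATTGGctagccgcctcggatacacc

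**Figure D3:**
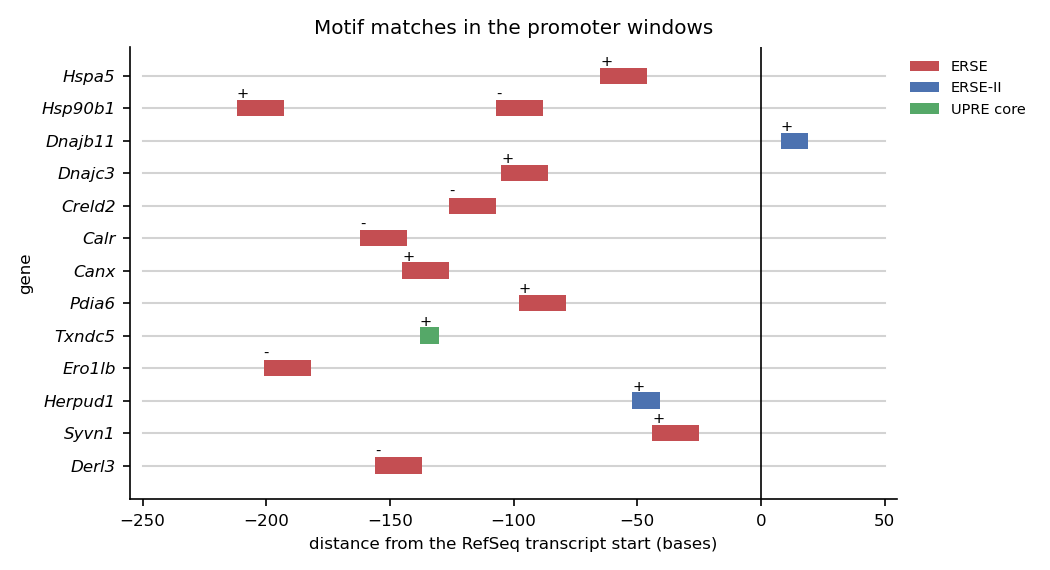
Positions of the motif matches (coloured bars, with the strand of the match relative to the gene) in bases from the RefSeq transcript start, one row for each of the 13 ER genes with a match; grey lines span the window searched. Of the ERSE matches, that of Syvn1 lies nearest the start, at -44 to -26, and the more distant of the pair in Hsp90b1 farthest, at -212 to -194.

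Genes with the element did not share a direction. The 8 tested genes with an ERSE had log2 fold changes from -1.69 (Calr) to 1.53 (Syvn1), with a median of -0.09, 4 of them positive and 4 negative. The 18 tested genes whose window held no ERSE had a median of 0.17, with 12 positive and 6 negative. They include Herpud1, Dnajb11 and Txndc5, all positive, which carry another of the motifs searched. No test was made of this split, and 0 genes in either set passed.

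Among the chaperones, the abundant Hsp70 and Hsp90 members had overlapping levels. Hspa5 (ENSMUSG00000026864.13, chromosome 2, 34771970 to 34777547, plus strand, GRCm38) encodes BiP, the ER Hsp70 that also holds the sensors inactive. It had 898, 659 and 732 CPM in knockout replicates 1 to 3, and 562, 1581 and 813 CPM in WT replicates 1 to 3. The WT libraries held both the lowest and the highest value, and the log2 fold change was -0.37 (SE 0.382, edgeR adjusted p 0.652), turning to 0.16 without WT replicate 2. Hsp90b1, the ER Hsp90 known as Grp94, had 748, 566 and 644 CPM in the knockout and 431, 722 and 588 CPM in WT, with a log2 fold change of 0.17 (SE 0.287, adjusted p 0.788). The genotypes overlapped for both genes.

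Dnajb9 stood apart between genotypes by its levels. It encodes ERdj4, a BiP co-chaperone that is a known target of spliced XBP1 (ENSMUSG00000014905.4, chromosome 12, 44205559 to 44210326, minus strand, GRCm38). It had 69, 55 and 100 reads in knockout replicates 1 to 3, against 23, 5 and 12 in WT replicates 1 to 3, which is 10.4, 9.07 and 14.9 CPM in the knockout against 6.85, 4.00 and 2.72 CPM in WT. All 3 knockout libraries were above all 3 WT libraries, as for 12.3% of all genes tested. The log2 fold change was 1.33 (SE 0.490, unadjusted p 0.0211, edgeR adjusted p 0.245), so it did not pass, and 6.7% of all genes tested were higher at an unadjusted p under 0.05. It kept its sign in all 19 alternative settings, between 0.95 and 2.06, with adjusted p from 0.0655 to 0.714.

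The other co-chaperones overlapped, apart from Creld2. Hyou1, the nucleotide exchange factor Grp170, had 15.8, 14.5 and 17.9 CPM in the knockout and 14.9, 4.80 and 8.17 CPM in WT (log2 fold change 0.74, SE 0.428, edgeR adjusted p 0.419). WT replicate 1 lay within the knockout range and the WT libraries 2 and 3 below it. Creld2, a secreted disulfide isomerase-like protein, had 20.0, 18.1 and 18.2 CPM in the knockout and 31.0, 20.8 and 21.3 CPM in WT. All knockout libraries were below all WT libraries, as for 11.3% of all genes tested, with a log2 fold change of -0.38 (SE 0.310, adjusted p 0.557). Dnajc3, the co-chaperone P58IPK that also restrains PERK, averaged 81.5 ± 8.97 CPM in the knockout and 61.0 ± 17.4 CPM in WT (SD, n = 3 each). Manf, a neurotrophic factor retained in the ER with BiP, averaged 84.0 ± 6.13 CPM in the knockout and 63.0 ± 26.2 CPM in WT, with WT replicate 2 lowest at 32.8 CPM. Dnajb11 (ERdj3) averaged 45.4 ± 4.42 CPM in the knockout and 42.4 ± 16.6 CPM in WT. Sdf2l1, its partner in the BiP complex, averaged 9.88 ± 1.98 CPM in the knockout and 8.27 ± 3.68 CPM in WT. Log2 fold changes of these 4 ran from 0.08 to 0.41, with adjusted p from 0.490 to 0.921.

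Calr, which encodes the soluble lectin chaperone calreticulin, had the largest fold change of the 30 in size (ENSMUSG00000003814.8, chromosome 8, 84841850 to 84846934, minus strand, GRCm38). It had 749, 499 and 537 CPM in knockout replicates 1 to 3, against 1643, 3484 and 632 CPM in WT replicates 1 to 3. WT replicates 1 and 2 were far above the other 4 libraries, and WT replicate 3 lay within the knockout range. Calr made up 15.0%, 12.9% and 12.9% of the summed ER gene level in the knockout libraries, and 32.6%, 41.8% and 14.8% in WT replicates 1, 2 and 3. The log2 fold change was -1.69 (SE 0.526, unadjusted p 0.00919, edgeR adjusted p 0.228), and 9.19% of all genes tested were lower at an unadjusted p under 0.05. It passed with DESeq2 (adjusted p 0.0456) and in the authors' deposited table (adjusted p 0.0473), which calls 2.94% of the genes it tests and 1 of the 32 ER genes it covers. It also passed without WT replicate 3, at -2.09 with an adjusted p of 0.0110, a setting in which 13% of all genes passed. With WT replicate 3 as the only WT library it was -0.09 (adjusted p 0.902), and without WT replicate 2 it was -0.91. The libraries in which Calr was high are those with Rn45s shares of 41.9% and 39.8% and hepatocyte marker sums of 798 and 1321 CPM; the part of either in the result was not tested. In bulk samples fewer cells of a type and less RNA per cell cannot be told apart.

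Canx, the membrane-bound lectin calnexin that works beside calreticulin on glycoproteins, did not follow Calr in WT replicate 1. It had 575, 456 and 472 CPM in the knockout and 507, 888 and 532 CPM in WT, with a log2 fold change of -0.36 (SE 0.301, edgeR adjusted p 0.572). Its value in WT replicate 2 was the only one above the knockout range.

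Pdia4 was the lowest of the disulfide enzymes relative to WT. It encodes ERp72, a disulfide isomerase with several active thioredoxin domains (ENSMUSG00000025823.9, chromosome 6, 47796141 to 47813430, minus strand, GRCm38). It had 64.4, 62.3 and 61.6 CPM in knockout replicates 1 to 3, against 110, 220 and 87.6 CPM in WT replicates 1 to 3. The knockout values lay close together and below every WT value. The log2 fold change was -1.14 (SE 0.349, unadjusted p 0.00844, edgeR adjusted p 0.225). The gene passed without WT replicate 3 (edgeR adjusted p 0.0224, log2 fold change -1.37), a setting in which 13% of all genes passed. It was at -0.49 with WT replicate 3 as the only WT library and at -0.64 without WT replicate 2. As for Calr, WT replicates 1 and 2 held the highest levels, and the part of their Rn45s and hepatocyte reads was not tested.

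Ero1l and Txndc5 had the largest positive values among the disulfide enzymes. Ero1l (Ero1a), the oxidase that recharges disulfide isomerases and is also induced by hypoxia, had 192, 82.0 and 40.9 CPM in the knockout and 50.9, 79.9 and 21.3 CPM in WT. Knockout replicate 1 stood far above the rest. Knockout replicate 2 was just above the highest WT library, and knockout replicate 3 lay within the WT range (log2 fold change 1.08, SE 0.583, edgeR adjusted p 0.386). Without knockout replicate 1 the log2 fold change was 0.32, and with WT replicate 3 as the only WT library it was 2.29. Txndc5, a disulfide isomerase of secretory cells, had 151, 162 and 185 reads in the knockout and 52, 2 and 84 in WT, which is 22.7, 26.7 and 27.6 CPM in the knockout against 15.5, 1.60 and 19.1 CPM in WT. All knockout libraries were above all WT libraries, with a log2 fold change of 0.99 (SE 0.545, adjusted p 0.395). WT replicate 2 was far below the rest, and without it the log2 fold change was 0.58.

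The other disulfide enzymes overlapped between genotypes. P4hb, the classical isomerase PDI, averaged 224 ± 25.5 CPM in the knockout and 239 ± 37.7 CPM in WT (SD, n = 3 each). Pdia3 (ERp57), which acts with the lectins, averaged 231 ± 39.6 CPM in the knockout and 286 ± 51.6 CPM in WT. Pdia5, another thioredoxin-domain isomerase, averaged 15.4 ± 1.70 CPM in the knockout and 14.1 ± 3.25 CPM in WT. Only WT replicate 2 stood apart for Pdia6, which had 247, 220 and 230 CPM in the knockout and 243, 108 and 240 CPM in WT. Their log2 fold changes ran from -0.30 to 0.23, with edgeR adjusted p from 0.583 to 0.868. Ero1lb (Ero1b), the second oxidase and best known from pancreas, had 23, 23 and 6 reads in the knockout and 4, 0 and 7 in WT and was not tested.

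Syvn1 had the largest positive value of the 30 ER genes and no reads in WT replicate 2. It encodes Hrd1, the ubiquitin ligase at the centre of ER-associated degradation (ENSMUSG00000024807.18, chromosome 19, 6046576 to 6053712, plus strand, GRCm38). It had 65, 116 and 141 reads in knockout replicates 1 to 3, against 32, 0 and 26 in WT replicates 1 to 3, which is 9.78, 19.1 and 21.0 CPM in the knockout against 9.52, 0 and 5.90 CPM in WT. Knockout replicate 1 was barely above WT replicate 1, so the genotypes were separate only by a narrow gap. The log2 fold change was 1.53 (SE 0.683, unadjusted p 0.0481, edgeR adjusted p 0.311), and it ran from 1.13 without WT replicate 2 to 2.15 without WT replicate 1. An exon of Mrpl49 overlaps Syvn1 on the opposite strand. Without a stated strand setting, reads in the overlapping bases cannot be told apart, and the size of the overlap was not measured. The same holds for Manf, Pdia3, Pdia6, Txndc5 and Derl2, whose exons overlap those of Dcaf1, Catsper2, Atp6v1c2, Bmp6 and Mis12 in that order. Manf also shares exon sequence with Rbm15b on its own strand, which no strand setting separates. Exons of Hsp90b1 overlap Gm15344 on the same strand and the pseudogene 1810014B01Rik on the other.

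Sel1l, the adaptor that holds Hrd1 together, did not share the value of Syvn1. It averaged 133 ± 19.4 CPM in the knockout and 110 ± 19.1 CPM in WT (SD, n = 3 each; log2 fold change 0.28, edgeR adjusted p 0.606). Herpud1, a stress-induced partner of Hrd1, had 38.5, 29.4 and 29.2 CPM in the knockout and 24.7, 48.0 and 14.3 CPM in WT, so that the WT range took in the knockout range. Derl1, a channel subunit, averaged 47.7 ± 4.19 CPM in the knockout and 68.0 ± 18.1 CPM in WT, with a log2 fold change of -0.50 (SE 0.289, adjusted p 0.411). WT replicate 3, at 47.2 CPM, lay within its knockout range. Derl2 averaged 32.6 ± 3.55 CPM in the knockout and 37.1 ± 4.09 CPM in WT. Os9, a lectin that selects glycoproteins for disposal, averaged 70.8 ± 6.82 CPM in the knockout and 86.0 ± 23.3 CPM in WT. Edem1, a mannosidase-like factor, averaged 8.25 ± 0.237 CPM in the knockout and 11.3 ± 5.07 CPM in WT. These 3 overlapped between genotypes. Derl3, a stress-induced paralogue, had 2, 3 and 7 reads in the knockout and 0 in each WT library. Taking 3 counts over the WT group as the limit that a count of 0 allows, the WT level was at most 0.332 CPM. The knockout level of 0.616 CPM was 1.86-fold that limit. Its 12 reads were taken as exact, so their counting error and the spread between libraries are not covered, and no lower bound follows.

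The translocon subunits were higher on average in the knockout without passing. Sec61b, a small subunit of the channel, had 98.1, 81.5 and 120 CPM in knockout replicates 1 to 3, against 49.1, 25.6 and 99.9 CPM in WT replicates 1 to 3. WT replicate 3 was within the knockout range, and the other WT libraries below it. The log2 fold change was 0.76 (SE 0.426, edgeR adjusted p 0.405), and -0.0025 with WT replicate 3 as the only WT library. Without WT replicate 3 it was 1.39 (edgeR adjusted p 0.0290), a setting in which 13% of all genes passed. Ssr1, a subunit of the translocon-associated complex, averaged 158 ± 17.8 CPM in the knockout and 143 ± 24.1 CPM in WT (SD, n = 3 each), with a log2 fold change of 0.14 (adjusted p 0.804).

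The sensors were at low levels that overlapped between genotypes. Xbp1, the transcription factor activated by IRE1 splicing, had 20.8, 21.3 and 35.5 CPM in the knockout and 27.1, 7.99 and 14.5 CPM in WT (log2 fold change 0.60, SE 0.440, edgeR adjusted p 0.515). WT replicate 1 fell within the knockout range. Atf6 averaged 24.6 ± 2.10 CPM in the knockout and 20.3 ± 8.52 CPM in WT. Eif2ak3 averaged 11.8 ± 2.16 CPM in the knockout and 10.1 ± 2.58 CPM in WT (SD, n = 3 each). Their log2 fold changes were 0.31 and 0.25. Ern1 had 7, 20 and 3 reads in the knockout and 15, 0 and 0 in WT, too few to test.

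**Figure D4:**
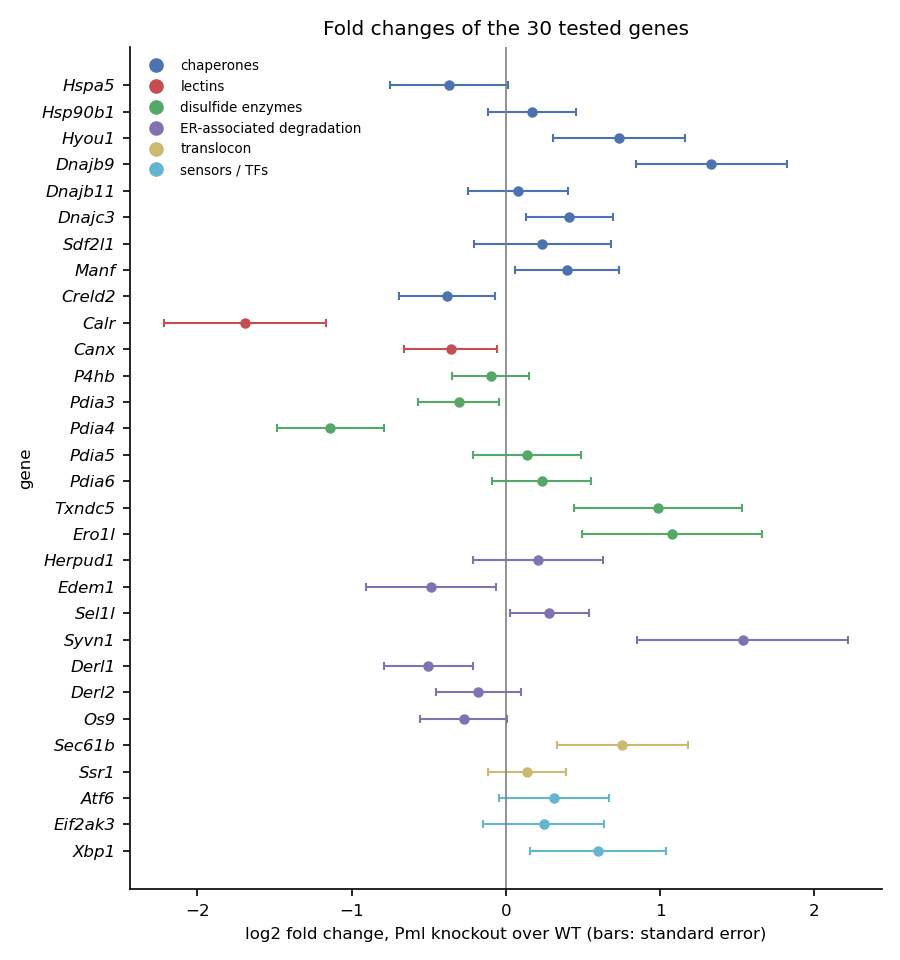
Log2 fold change of Pml knockout over WT for the 30 tested ER genes, coloured by role, with bars for the standard error of edgeR's quasi-likelihood fit. Calr at -1.69 and Pdia4 at -1.14 lie farthest to the left, Syvn1 at 1.53 and Dnajb9 at 1.33 farthest to the right, and none of the 30 passed.

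The summed level of the 33 genes was 4979, 3881 and 4165 CPM in knockout replicates 1 to 3, and 5040, 8328 and 4258 CPM in WT replicates 1 to 3. Only WT replicate 2 stood far from the others. The lectins contributed 26.6%, 24.6% and 24.2% of the summed level in knockout replicates 1 to 3, and 42.7%, 52.5% and 27.3% in WT replicates 1 to 3. The chaperones and co-chaperones contributed 38.4%, 38.1% and 39.8% in knockout replicates 1 to 3, and 24.3%, 29.5% and 38.9% in WT replicates 1 to 3. Their summed level was 1912, 1478 and 1659 CPM in knockout replicates 1 to 3, and 1224, 2454 and 1657 CPM in WT replicates 1 to 3. The genotypes overlapped, and WT replicate 2 had the highest chaperone level despite its low share. WT replicate 3 was thus close to the knockout libraries in both shares, and WT replicates 1 and 2 were apart from it. The disulfide enzymes summed to 1073, 814 and 809 CPM in knockout replicates 1 to 3 and 1065, 894 and 858 CPM in WT replicates 1 to 3, so the genotypes overlapped.

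Among 180 tested genes of the same pathways outside the 33, 0 passed by edgeR's quasi-likelihood test, with 15 higher and 16 lower at an unadjusted p under 0.05, while DESeq2 called 0 and the edgeR exact test called 1, Yod1. These 31 genes are 17.2% of the 180, close to the 15.9% of all genes tested, of which 6.7% were higher and 9.19% lower. Over all genes DESeq2 called 2.9% and the exact test 3.17%. By list the share was 25.7% of the other folding factors, 12.1% of the other degradation genes, 24.3% of the other translocon and glycosylation genes, 15.6% of the ER exit genes, 17.6% of the calcium store genes and 3.85% of the other sensors. Log2 fold changes were positive for 89 and negative for 91, with a median of -0.02. Of 35 other folding factors, 3 were higher and 6 lower at an unadjusted p under 0.05. Prkcsh, a glucosidase II subunit, averaged 50.5 ± 4.35 CPM in the knockout and 116 ± 62.0 CPM in WT. Tmx2, a membrane thioredoxin protein, averaged 55.5 ± 6.37 CPM in the knockout and 129 ± 81.0 CPM in WT (SD, n = 3 each). Both were lower in every knockout library than in any WT library, as were 25 of the 180 and 11.3% of all genes tested. The gaps were narrow. The highest knockout library and WT replicate 3 were at 54.9 and 59.0 CPM for Prkcsh, and at 62.9 and 65.4 CPM for Tmx2. Sdf2, a paralogue of Sdf2l1, averaged 45.2 ± 6.94 CPM in the knockout and 25.0 ± 6.66 CPM in WT. Of 33 other degradation genes, 2 were higher and 2 lower at that p. Yod1, a deubiquitinase that works with p97, had 6.77, 10.2 and 11.6 CPM in the knockout and 2.38, 1.60 and 4.09 CPM in WT. Aup1, a lipid droplet and degradation factor, averaged 42.2 ± 3.65 CPM in the knockout and 84.2 ± 33.3 CPM in WT. Ubxn6, a p97 cofactor, averaged 25.1 ± 0.263 CPM in the knockout and 42.5 ± 14.4 CPM in WT.

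Of 37 other translocon and glycosylation genes, 4 were higher and 5 lower at an unadjusted p under 0.05, with a median log2 fold change of -0.20. Ssr4, a partner of Ssr1, averaged 85.6 ± 6.43 CPM in the knockout and 198 ± 97.3 CPM in WT. Krtcap2, an oligosaccharyltransferase subunit, averaged 129.8 ± 6.95 CPM in the knockout and 342 ± 203 CPM in WT. Sec61a1, the channel's pore subunit, averaged 177 ± 39.1 CPM in the knockout and 347 ± 132 CPM in WT (SD, n = 3 each). WT replicate 3 was the lowest WT library for Ssr4, Krtcap2 and Sec61a1, at 111, 144 and 226 CPM. The highest knockout library was at 91.4, 138 and 221 CPM for these genes in that order. Sec61b and Sec61a1 thus had log2 fold changes of opposite sign, 0.76 and -0.97, and neither passed. Of 32 ER exit and retrieval genes, 3 were higher and 2 lower at that p. Copz1, a coatomer subunit, averaged 130.3 ± 3.44 CPM in the knockout and 253 ± 126 CPM in WT, with WT replicate 3 lowest at 173 CPM. Kdelr3, a receptor that returns ER proteins, averaged 19.6 ± 8.17 CPM in the knockout and 7.39 ± 3.64 CPM in WT. Sec23a, a coat subunit of ER exit sites, averaged 84.9 ± 5.77 CPM in the knockout and 42.3 ± 20.8 CPM in WT.

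Of 17 ER calcium store genes, 2 were higher and 1 lower at an unadjusted p under 0.05. Rcn2, a luminal calcium-binding protein, averaged 78.9 ± 9.48 CPM in the knockout and 45.6 ± 9.11 CPM in WT (SD, n = 3 each). Selk, an ER selenoprotein, averaged 129.6 ± 23.3 CPM in the knockout and 77.0 ± 20.4 CPM in WT. Sdf4, a calcium-binding protein of the Golgi lumen, averaged 64.7 ± 6.01 CPM in the knockout and 102 ± 19.2 CPM in WT. Of 26 other sensors, proteases and transcription factors, 1 was higher and 0 lower at that p, with a median log2 fold change of 0.0009. It was Tmbim6, an ER membrane protein that restrains IRE1 and cell death, with 194 ± 18.2 CPM in the knockout and 116 ± 43.2 CPM in WT. Creb3l3, a transcription factor best known from liver, averaged 3.15 ± 1.36 CPM in the knockout and 7.83 ± 4.55 CPM in WT, and the libraries highest for it, WT replicates 1 and 2, are those with the highest hepatocyte marker sums; the part of these in its level was not tested. Ppp1r15b, which directs the dephosphorylation of eIF2 alpha, averaged 71.9 ± 5.26 CPM in the knockout and 52.3 ± 4.57 CPM in WT. The smallest edgeR adjusted p over the 180 was 0.220.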

How the data were processed

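Polyadenylated RNA was measured with a 3′ tag kit in 6 libraries of mouse neural stem cells. Per the submitters' processing notes, FastQC, HISAT2, HTSeq and edgeR were used with the mm10 build; for tool versions, annotation and strandedness, not given in the sources used here. Raw read counts for each gene symbol were deposited, with the authors' log2 fold change, p-value and adjusted p (per the file headers); 6 per-sample columns of normalized values were not used.

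From these counts edgeR 4.0.16 (R 4.3.3) kept genes by filterByExpr, with its minimum count at 10 and minimum total at 15. Scaling used TMM factors (trimmed mean of M values). Knockout was set against WT in a robust quasi-likelihood F test without covariates. P-values were Benjamini-Hochberg adjusted over 11317 genes. The standard error was the log2 fold change divided by the square root of F. The test was first run on simulated counts that had the same dispersion in both genotypes. That simulation does not cover the wider spread of the WT libraries. Limma 3.58.1 and DESeq2 1.42.0 were alternatives. Intervals for reads without molecular identifiers would cover counting error only. Gene positions are from GENCODE M21 (GRCm38), and promoter sequences from RefSeq (GRCm38.p6). The 33 genes and the other lists were chosen with earlier results of these data known. All 33 are named, and of each other pathway list the 3 with the smallest p. Of 9 marker lists, those for hepatocytes, erythroid cells and neural stem cells bear on the text; the neuronal, astrocyte, oligodendrocyte, microglial, endothelial and mesenchymal lists are given in the closing section.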

Additional observations from a re-analysis of the deposited data

How the results depend on the processing

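Of 570 values of single ER genes under the alternatives, 540 kept their sign and stayed short of the threshold, 26 changed sign and 4 passed. The genes called over all genes were 1 in the test as reported and after removal of transcript length and GC trends, 0 with DESeq2 size factors, library totals, a minimum of 5 CPM, limma voom and without the Rn45s row, 3 with no count filter, 328 with DESeq2, 359 with the edgeR exact test, and 142 with WT replicate 3 as the only WT library. With 1 library left out the count ran from 0 to 1526, the 1526 without WT replicate 3. The ER genes called were 1 with DESeq2 (Calr), and 0 to 3 with 1 library left out. The 3 were Calr, Pdia4 and Sec61b, of 32 tested without WT replicate 3, where 13% of all genes passed. The other pathway genes called were 1 with the exact test (Yod1), and 0 to 25 with 1 library left out. The 25 were called without WT replicate 3, again beside 13% of all genes. The cause was not tested. The replicate number as a block gave 2 genes called over all genes and 0 ER genes. Libraries with the same number in their sample titles deviated together with correlations of -0.003, 0.067 and 0.188. Not every library correlated best with its own title number. The library names number the knockout libraries differently from the titles. With so few libraries these values cannot show whether same-numbered libraries were paired.

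Library totals moved the median of all genes to 0.43 and that of the ER genes to 0.63. Removing length and GC trends moved them to -0.11 and 0.0585, against -0.01 and 0.19 as reported. Sign changes under library totals, all smaller than that median of all genes, were Hspa5 (0.13), Creld2 (0.0834), Canx (0.14), P4hb (0.37), Pdia3 (0.15), Derl1 (0.0135), Derl2 (0.29) and Os9 (0.25). With WT replicate 3 as the only WT library they were Dnajb11 (-0.43), P4hb (0.0491), Pdia6 (-0.0536), Derl1 (0.0096), Os9 (0.23), Sec61b (-0.0025) and Ssr1 (-0.0877). With trends removed they were Hsp90b1 (-0.22), P4hb (0.0119), Ssr1 (-0.25) and Atf6 (-0.0015). With 1 library left out, Dnajb11 ran from -0.11 to 0.45, Herpud1 from -0.11 to 0.75, Hspa5 from -0.63 to 0.16, P4hb from -0.18 to 0.0546, Pdia5 from -0.0441 to 0.31 and Pdia6 from -0.046 to 0.41. The single-WT-library and trend settings were chosen after seeing the data; the first of these assumes that the lone WT library varies like the knockout libraries. WT replicate 2 had the lowest total, 1775152 counts, which makes its low values the least precise.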

Other observations

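Across 11265 tested genes with a transcript in the annotation, the log2 fold change correlated with transcript GC content at -0.31 and with log transcript length at 0.24, in the same 6 libraries. Over the 30 tested ER genes these were 0.07 and 0.05, with a median GC content of 49.7% beside 49.5% over all genes tested. These are correlations across genes, which are not independent replicates.

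Summed markers of other cell types ran as follows. Neuronal markers were at 737 to 802 CPM in the knockout and 795 to 998 CPM in WT, and astrocyte markers at 935 to 1254 CPM in the knockout and 600 to 1751 CPM in WT. Map2 and Gap43 weigh most in the first sum, and Aldoc and Slc1a2 in the second. Without overlap, Elavl3 was higher and Gap43 lower in the knockout among 12 neuronal markers. Aqp4 was higher among 7 astrocyte markers. Over all genes tested, 12.3% were higher and 11.3% lower without overlap. Oligodendrocyte lineage markers were at 1644 to 2101 CPM in the knockout and 1161 to 2050 CPM in WT. Microglia and macrophage markers were at 0 to 2.11 CPM in the knockout and 1.59 to 33.6 CPM in WT, the 33.6 CPM being WT replicate 2. Endothelial and mural markers were at up to 16.4 CPM in the knockout and 13.1 CPM in WT, and mesenchymal and meningeal markers at 7.75 to 16.9 CPM in the knockout and 6.39 to 23.8 CPM in WT.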
